A study of Ovis aries with 13 samples.

Results

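ABCB1 and ABCG2 encode ATP-driven export pumps. They are 2 of 1011 genes that could be named on the array, which held 3 probes for them, 2 for ABCB1 and 1 for ABCG2, among 15008 probes. The probes were found by the gene name or the RefSeq identifiers given for each spot, so no measured value entered the choice. Transcript levels were measured in frozen pieces of sheep left ventricle with 1 Agilent 1-colour array for each sample. The tissue came from newborn lambs at postnatal day 1 (7 samples, 4 female and 3 male) and fetuses at gestational day 142 (6 samples, 2 female and 4 male). No treatment, breed or genotype is given for either group, and the title of the series concerns the metabolism of the newly born heart. The arrays lay on 2 slides, with 3 newborn and 4 fetal arrays on slide 1 and 4 newborn and 2 fetal arrays on slide 2. Some samples carry an animal number in common, namely newborn 1 and 7, newborn 2, 4 and 5, fetal 1 and 6, and fetal 3 and 5. The labels do not say whether such samples are litter mates or, where the sex is the same, repeat samples of 1 animal. The p-values therefore measure the spread between these arrays.

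ABCB1 encodes P-glycoprotein, which expels a broad range of lipophilic drugs and toxins, the cardiac glycoside digoxin among them, and sits on the blood side of capillary endothelium. ABCG2 encodes the breast cancer resistance protein, which works as a dimer and exports urate, porphyrins, sulfate conjugates and many drugs. Both pumps are known from the placenta, the gut and the blood-brain barrier, and in the heart they are known mainly from small vessels.

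The values are the background-subtracted signal of each spot on a log2 scale, relative to the 75th percentile of the same array, so that 0 means a signal equal to that percentile and each step of 1 a doubling. That percentile was a signal of 219 to 367 across the 13 arrays, and 62.7% to 71.4% of the probes on an array were called well above background by the scanner software. Arrays of the same group correlated at r = 0.956 to 0.99, and 0 pairs held identical values. Myoglobin (MB), an oxygen store of muscle, was far above the 75th percentile in both groups, at a mean of 8.62 on newborn and 8.97 on fetal arrays. It was the only named cardiomyocyte marker, of 19 listed, and the other markers on that list were not analysed here.

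The 3 probe sequences are shown because what can be said of the pumps depends on what these probes cover. The ABCB1 probes are each 60 bases long and start at 3025 and 3045 in the array file's numbering, so they overlap by 40 bases and are not independent readings. The shared bases are in capitals.
ABCB1, brighter probe: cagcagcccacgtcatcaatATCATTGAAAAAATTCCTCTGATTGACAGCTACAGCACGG
ABCB1, dimmer probe: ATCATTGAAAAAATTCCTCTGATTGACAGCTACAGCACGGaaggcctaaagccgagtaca
ABCG2, opening bases of the probe: cctctttaatttcaatgatttaccccccat
The ABCG2 probe starts at 2127, and the opening 30 of its 60 bases are printed. It holds 35% G and C bases, against 45% and 43.3% in the brighter and the dimmer ABCB1 probe. A search with windows of 25 bases found 0 other probes on the array that share such a stretch with the ABCG2 probe, and for each ABCB1 probe only the other one. The array files give these probes no genome position. In the RefSeq gene table of assembly ARS-UI_Ramb_v3.0, ABCG2 lies between PPM1K and PKD2, and neither neighbour had a named probe.

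ABCB1 was a dim signal in both groups, and ABCG2 was read well above background on every array. The brighter ABCB1 probe was well above background on 10 of 13 arrays, 5 newborn and 5 fetal, and the dimmer one on 6, of which 2 were newborn and 4 fetal. The ABCG2 probe was well above background on 13 of 13. None of the 3 was saturated or marked as an outlier spot on any array. On 2 arrays, newborn 6 and fetal 3, the scanner software had replaced the signal of the dimmer ABCB1 probe by a surrogate value, so those readings are bounds. Levels of different probes depend on the probe as well as on the transcript, and ABCB1 and ABCG2 levels are therefore not set against each other.

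No age difference of ABCB1 passed the test across all 13 arrays. On the brighter probe the newborn arrays had a lowest value of -4.99, a median of -4.16 and a highest of -3.48, against a lowest of -5.64, a median of -3.26 and a highest of -2.36 on fetal arrays. Of the 6 fetal arrays 4 lay above every newborn array and 1, fetal 3, lay below every newborn array. The means were -4.14 ± 0.61 (SD, n = 7) on newborn and -3.47 ± 1.14 (SD, n = 6) on fetal arrays. The difference, newborn minus fetal, was -0.67 (SE 0.434, 95% confidence interval -1.60 to 0.25, limma adjusted p = 0.273), and an exact two-sided permutation test over the 1716 ways of assigning the arrays gave p = 0.199. The interval covers no change as well as a fall of 1.60 on the log2 scale. For comparison, 2366 of 10257 tested probes, or 23.1%, passed for age, 1227 of them higher and 1139 lower in newborn ventricles.

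The dimmer ABCB1 probe gave the same sign with more spread. Its lowest, median and highest values were -5.94, -4.51 and -3.69 on newborn arrays and -6.69, -3.63 and -2.61 on fetal arrays. The groups overlapped, with 3 fetal arrays above every newborn array. The lowest value of each group, on newborn 6 and fetal 3, is a surrogate, and the 2 have no measured order. The difference was -0.47 (SE 0.551, 95% confidence interval -1.65 to 0.71, limma adjusted p = 0.559, exact permutation p = 0.47). Across the 13 arrays the 2 ABCB1 probes followed each other at r = 0.92, at 0.775 on the 7 newborn arrays and 0.976 on the 6 fetal arrays. They share bases and were read on the same RNA, and the 2 surrogate values are included. With normexp background correction and an offset of 50, which makes dim changes smaller by construction, the differences were smaller. They were -0.18 (SE 0.336) and -0.12 (SE 0.363) with the background of each spot. With that of the array they were -0.15 (SE 0.104) and -0.06 (SE 0.099). With the background of each spot the differences shrank by a larger factor than their SEs, and the reason was not tested.

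**Figure D1:**
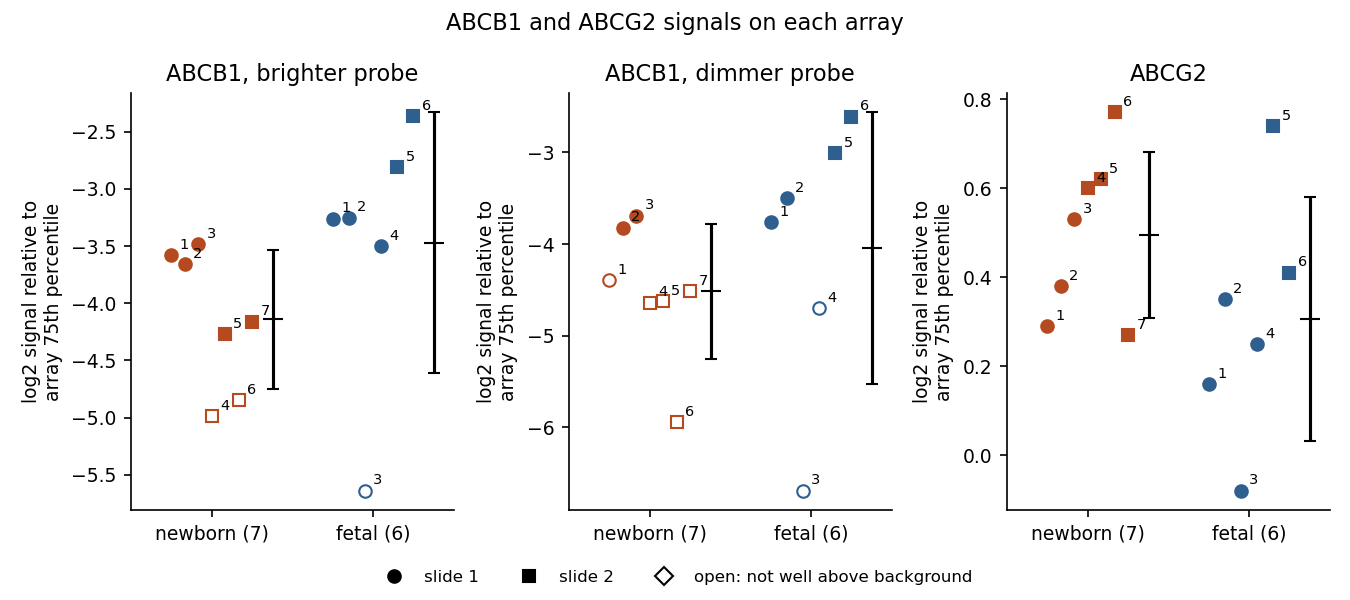
Log2 signal relative to the array's 75th percentile for the 2 ABCB1 probes and the ABCG2 probe, with newborn arrays left of fetal arrays, numbers giving the replicate, circles slide 1 and squares slide 2. Open symbols were not well above background, and black bars are the mean ± SD. Fetal 3 is the lowest array on the brighter ABCB1 probe and on ABCG2, at -5.64 and -0.08, the lowest points of the dimmer probe (newborn 6 and fetal 3) are surrogate values, and on both ABCB1 probes fetal 5 and 6 are the highest.

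On the background-subtracted log2 scale the ABCB1 probes varied between arrays more than most probes did. The SD within groups of the brighter probe was 0.89, above 98.3% of the tested probes. That of the dimmer probe, with its 2 surrogate values included, was 1.13, above 99.2%. The median SD over tested probes was 0.256, and 0.472 over the 790 that were well above background on 6 to 10 arrays. In the main fit the SE of the age difference was 0.434 and 0.551 on the ABCB1 probes and 0.13 on ABCG2. With no background subtracted, which makes dim changes smaller by construction, it was 0.135, 0.132 and 0.111. The part of low signal in the ABCB1 spread was not tested. Among samples with an animal number in common, the brighter probe spanned 0.58 on the log2 scale between newborn 1 and 7, 1.33 between newborn 2, 4 and 5, 2.83 between fetal 3 and 5, and 0.90 between fetal 1 and 6. Of these readings, those of newborn 4 and fetal 3 were not well above background. Fetal 3 had a median correlation of 0.984 with the other fetal arrays, and the fetal arrays ranged from 0.982 to 0.984. A correlation over so many probes cannot show whether a single dim reading is sound.

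**Figure D2:**
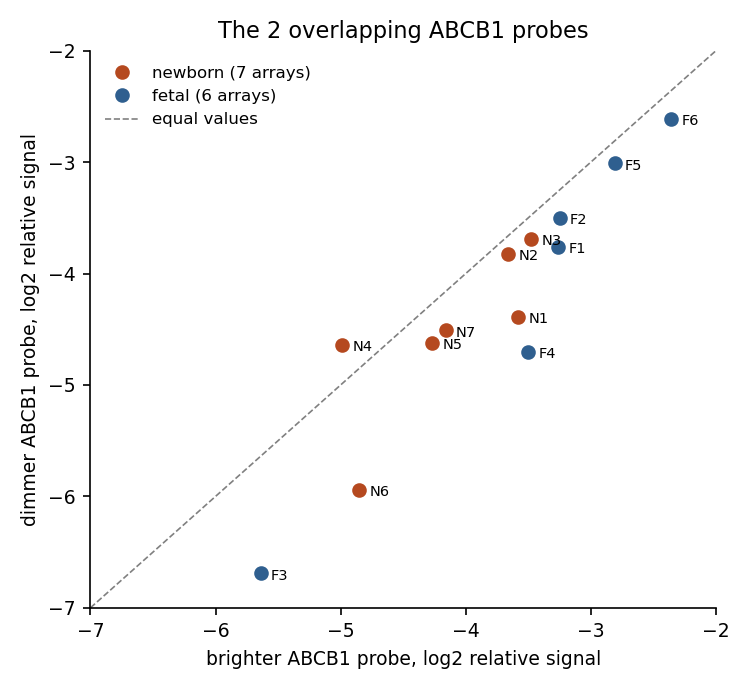
The dimmer ABCB1 probe plotted against the brighter one, both as log2 signal relative to the array's 75th percentile, with 1 point per array (N newborn, F fetal) and a dashed line of equal values. The points follow each other at r = 0.92, with F6 at -2.36 and -2.61 the highest, and the dimmer values of N6 and F3 are surrogates.

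The ABCB1 result turned on fetal 3, whose readings on both ABCB1 probes were not well above background. Without that array the brighter probe differed by -1.11 (SE 0.287, limma adjusted p = 0.0201) and passed, in a fit in which 17.3% of the tested probes passed. With slide as a block as well it differed by -1.06 (adjusted p = 0.0299). The dimmer probe, without fetal 3, differed by -1.0 (SE 0.389, adjusted p = 0.0892) and did not pass. Leaving out any other array gave an adjusted p above 0.05 on both probes. Fetal 3 was singled out after its values were seen, and nothing in the labels sets it apart.

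With fetal 3 included, the ABCB1 differences had opposite signs on the 2 slides. On slide 1 the newborn arrays held -3.58, -3.66 and -3.48 on the brighter probe, against -3.26, -3.25, -5.64 and -3.50 on the fetal arrays. There the newborn arrays lay within the fetal range, whose lowest value was fetal 3 at -5.64, not well above background. Of the other fetal arrays there, -3.26 and -3.25 lay above every newborn array and -3.50 lay within the newborn range. The slide 1 difference was 0.34 with fetal 3 included (adjusted p = 0.745), and the difference there without fetal 3 was not tested. On slide 2 the newborn arrays held -4.99, -4.27, -4.85 and -4.16, against -2.81 and -2.36 on the fetal arrays. The difference there was -1.99 (adjusted p = 0.0566, unadjusted p = 0.000182 in limma with 4 newborn and 2 fetal arrays). The newborn readings of -4.99 and -4.85 were not well above background. The dimmer probe differed by 0.69 on slide 1 and by -2.12 on slide 2 (adjusted p = 0.577 and 0.109). These include the surrogate values of fetal 3 on slide 1 and of newborn 6 on slide 2. The product of age and slide was -2.33 for the brighter probe (SE 0.718, 95% confidence interval -3.88 to -0.77) and -2.81 for the dimmer one (SE 0.934), with unadjusted p = 0.00668 and 0.0103 in limma. Neither passed with adjustment over all probes (adjusted p = 1), a test in which 0% of the probes passed and 292 had an unadjusted p under 0.05. Both signs come from few arrays, fetal 3 among those on slide 1, and the product of age and slide was added after the values were seen.

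ABCG2 was measured more evenly and its age difference did not pass. The lowest, median and highest values were 0.27, 0.53 and 0.77 on newborn arrays, against -0.08, 0.30 and 0.74 on fetal arrays. As percentages of the array's 75th percentile, the signal was 120 to 170 on newborn arrays and 94.4 to 167 on fetal arrays. The groups overlapped: fetal 1, fetal 3 and fetal 4 lay below every newborn array, and newborn 6 lay above every fetal array. The means were 0.49 ± 0.19 (SD, n = 7) on newborn and 0.31 ± 0.27 (SD, n = 6) on fetal arrays. The difference was 0.19 (SE 0.13, 95% confidence interval -0.09 to 0.47, limma adjusted p = 0.305, exact permutation p = 0.168). Of the 3 probes this one gave the narrowest interval, whose upper end is a rise of 0.47 on the log2 scale. Its SD within groups was 0.23, above 40.5% of the tested probes. The slides gave 0.23 on slide 1 and -0.01 on slide 2, and the product of age and slide was -0.24 (SE 0.236, adjusted p = 1).

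The 2 genes differed in sign of the age difference but the difference between them was not resolved. The log2 ratio of ABCB1 to ABCG2 within an array averaged -4.63 ± 0.74 on newborn and -3.77 ± 0.94 on fetal arrays with the brighter ABCB1 probe, a gap of -0.86 (exact two-sided permutation p = 0.0892). With the dimmer probe the gap was -0.66 (exact permutation p = 0.288), with the surrogate values of newborn 6 and fetal 3 included. The gap with the brighter probe includes fetal 3, newborn 4 and newborn 6, whose ABCB1 readings were not well above background. Only changes of this ratio between groups are readable, since its level depends on the probes.

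**Figure D3:**
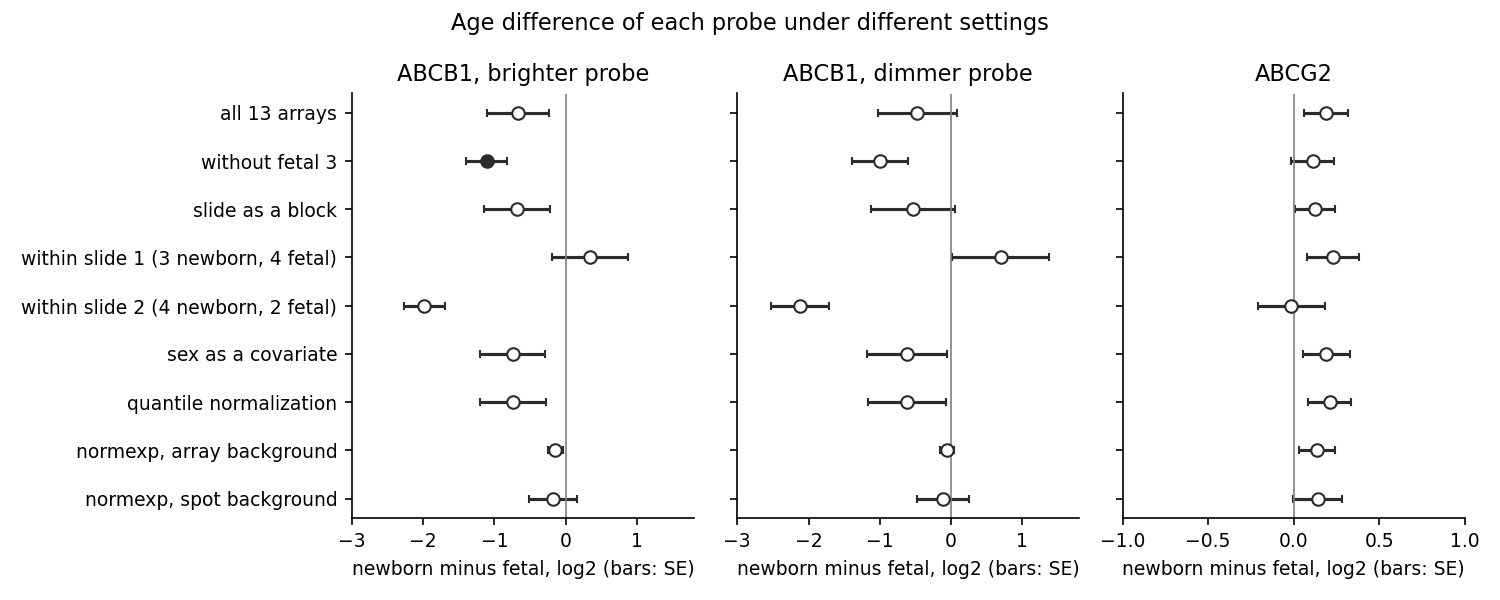
Newborn minus fetal log2 difference (points, with SE bars) of each probe under 9 settings, with filled points for an adjusted p under 0.05. The 1 filled point is the brighter ABCB1 probe without fetal 3, at -1.11. The ABCB1 points on slide 1, where fetal 3 is included, lie right of 0, at 0.34 and 0.69. Those on slide 2 lie left of 0, at -1.99 and -2.12, and the ABCG2 points lie between -0.01 and 0.23.

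Sex showed no effect on either pump that passed. Female minus male, with age in the model, the brighter ABCB1 probe differed by 0.29 (SE 0.457, 95% confidence interval -0.69 to 1.27), the dimmer one by 0.62 (SE 0.564) and ABCG2 by -0.01 (SE 0.138, 95% confidence interval -0.31 to 0.28), each with limma adjusted p = 0.999. Across the array 1 of 10257 probes, or 0.00975%, passed for sex, and 331 had an unadjusted p under 0.05. Female newborn arrays had a mean of -4.25 (n = 4) on the brighter ABCB1 probe, against -2.80 on female fetal arrays (n = 2). Male newborn arrays had a mean of -4.00 (n = 3), against -3.80 on male fetal arrays (n = 4), fetal 3 among them. The difference between the sexes in the age effect was -1.26 on this probe (SE 0.891, 95% confidence interval -3.19 to 0.67, adjusted p = 0.987), -1.54 on the dimmer probe (SE 1.1, adjusted p = 0.987) and -0.23 for ABCG2 (SE 0.282, adjusted p = 0.99). For that test 0% of the probes passed, with 507 at an unadjusted p under 0.05.

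Slide had no effect on either pump that passed. ABCG2 differed by 0.27, slide 2 minus slide 1 with age in the model (SE 0.117, unadjusted p = 0.0379, limma adjusted p = 0.905). Means for ABCG2 were 0.56 on newborn and 0.58 on fetal arrays of slide 2, and 0.40 on newborn and 0.17 on fetal arrays of slide 1. The ABCB1 probes differed by 0.02 and 0.27 (adjusted p = 0.999 and 0.996). Across the array 0% of the probes passed for slide, with 533 at an unadjusted p under 0.05.

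Of 46 other ABC transporter genes listed, only CFTR, the chloride channel of the family, had a named probe. Its 2 probes were well above background on 0 and on 3 arrays, 1 newborn and 2 fetal, and neither was tested. The other ABC genes were not analysed here.

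Among 42 listed regulators of the pumps' genes, 15 were tested, of which 2 rose, 1 fell and 12 did not pass, with a median difference of -0.00092. All tested probes had a median of 0.03. Of 644 named genes 147, or 22.8%, passed, and their median difference was 0.09. TNF, an inflammatory cytokine, had a lowest, median and highest value of -4.26, -3.21 and -2.51 on newborn arrays and -6.07, -5.01 and -4.15 on fetal arrays. TNF rose by 1.75 (SE 0.364, limma adjusted p = 0.00459), though only 2 fetal arrays, against 6 newborn arrays, measured it well above background. IL1B, another inflammatory cytokine, rose by 0.49 (SE 0.141, adjusted p = 0.0226), and was well above background on 4 newborn and 2 fetal arrays. PPARG, a nuclear receptor that can raise ABCG2 transcription in human cells, had a median of -1.22 on newborn arrays and -0.52 on fetal arrays, and fell by 0.54 (SE 0.174, adjusted p = 0.0386). A fit with slide as a block ended the PPARG call (-0.54, adjusted p = 0.0542), as did a random block for the shared animal numbers (-0.53, adjusted p = 0.0705), and so did the loss of any 1 of 9 arrays, namely newborn 2, 3, 4, 5 or 7 or fetal 1, 2, 5 or 6 (adjusted p = 0.0664 to 0.0843). The IL1B call was lost without fetal 2 or fetal 5 (adjusted p = 0.0525 and 0.0553).

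The xenobiotic and hypoxia sensors on that list did not pass. AHR, the dioxin receptor, which drives ABCG2 in human cells, differed by -0.19 (adjusted p = 0.255), and its partner ARNT by -0.45 (adjusted p = 0.092). HIF1A and EPAS1, the oxygen-regulated subunits of the hypoxia factors, differed by 0.16 (adjusted p = 0.456) and 0.10 (adjusted p = 0.559). NR3C1, the glucocorticoid receptor, differed by -0.16 (adjusted p = 0.489). The brightest JUN probe, for a subunit of the AP-1 factor, differed by 0.07 (adjusted p = 0.659), while its other probe differed by -0.75 and passed (adjusted p = 0.0423), a pair named after its values were seen.

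The other lists around drug handling had few tested members. Neither tested enzyme of drug metabolism passed, with 0.09 for GSTA1, a glutathione transferase (adjusted p = 0.682), and 0.20 for UGT1A9, a glucuronosyltransferase (adjusted p = 0.562). SLCO2A1, the prostaglandin carrier and the only tested uptake carrier, had a median of -2.76 on newborn and -2.34 on fetal arrays, and fell by 0.41 (SE 0.114, adjusted p = 0.0187). Of 3 tested genes of haem and iron handling, UROD, an enzyme of haem synthesis that acts on porphyrin precursors, rose by 0.56 (SE 0.128, adjusted p = 0.00782), with medians of 4.94 on newborn and 4.31 on fetal arrays. FTH1, the ferritin heavy chain, differed by -0.23 (adjusted p = 0.235) in a fit without 1 newborn array whose spot carried an outlier mark, and another of its probes differed by -0.42 and passed (adjusted p = 0.0135). None of the 3 tested membrane partners of ABCB1 passed, with -0.46 for CAV1, the coat protein of caveolae (adjusted p = 0.0843), and 0.40 for the kinase AKT1 (adjusted p = 0.0903). Over these lists 5 of 24 genes passed, 3 higher and 2 lower in newborn ventricles, or 20.8%, which is near the share of all probes. Of the tested probes 11.1% passed and were lower. With normexp on the background of each spot none of these 5 passed (adjusted p = 0.362 to 1), in a fit in which only 48 of 10257 probes passed. IL1B and SLCO2A1 did not pass without background subtraction either (adjusted p = 0.103 and 0.0697).

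**Figure D4:**
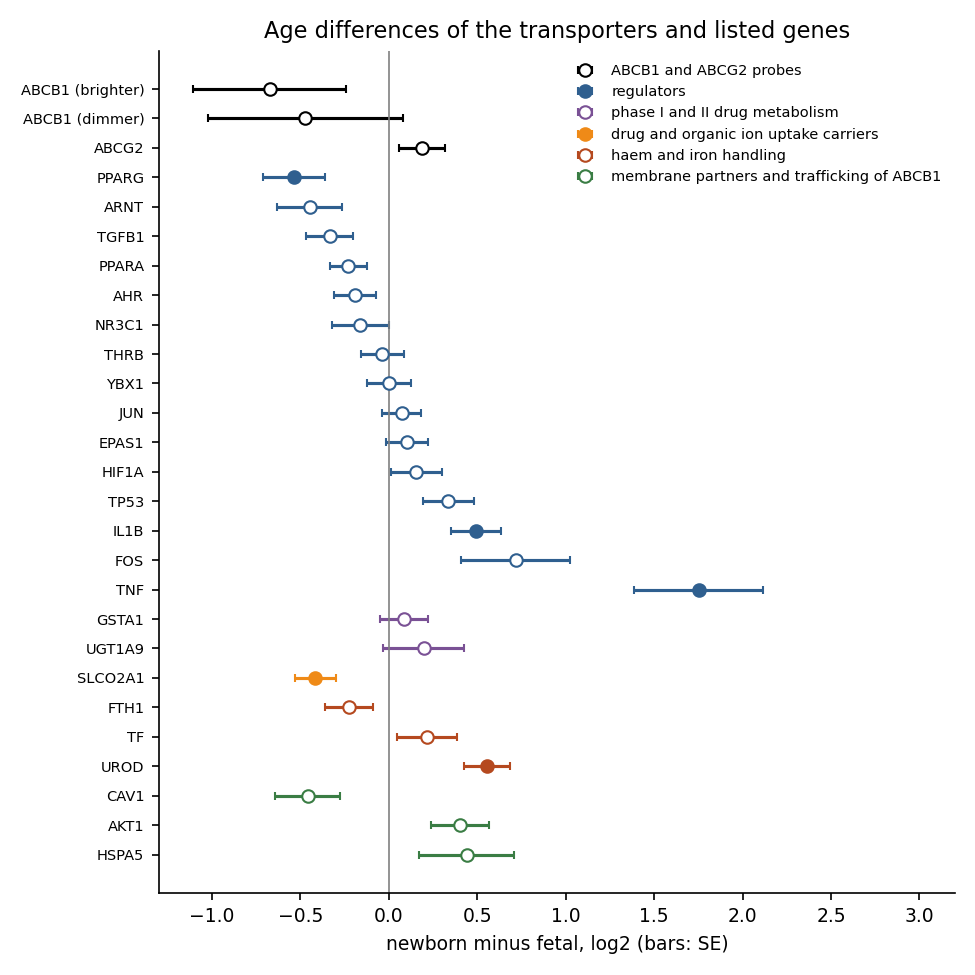
Newborn minus fetal log2 difference with SE bars for the 3 transporter probes and the 24 listed genes by their brightest probe, coloured by list, with filled points for an adjusted p under 0.05. The 5 filled points are TNF at 1.75, UROD at 0.56, IL1B at 0.49, SLCO2A1 at -0.41 and PPARG at -0.54, and the 3 transporter probes are open.

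Some markers of the vessel cells in which the pumps are known changed with age. Of 5 tested endothelial markers 3 fell, 0 rose and 2 did not pass, with a median of -0.46, where 11.1% of all tested probes fell and 23.1% passed in either direction. These shares are the background for each marker list that follows, and nothing is read from the lists beyond their counts. FLT1, a VEGF receptor, fell by 0.82 (adjusted p = 0.001) and was lower on every newborn array than on any fetal array, and PECAM1, a junction protein, fell by 0.51 (adjusted p = 0.00869). The call of the third, the VEGF receptor KDR (-0.46, adjusted p = 0.0233), was lost with a random block for the shared animal numbers (adjusted p = 0.0523) and without fetal 1 or fetal 2 (adjusted p = 0.0512 and 0.0504). The other tested KDR probes differed by -0.552, -0.327 and -0.505 (limma adjusted p = 0.0201, 0.0671 and 0.00841). The summed endothelial level was 447 to 699 percent of the 75th percentile on newborn arrays and 609 to 781 on fetal arrays, and fetal 3 held 740. This sum is of signals not in log2, so PECAM1, the brightest marker, weighs most in it (log2 means 1.98 on newborn and 2.49 on fetal arrays). The part of these markers in the ABCB1 values was not tested, and in such pieces of tissue fewer cells of a type and less RNA per cell cannot be told apart. Of 2 tested markers of pericytes and smooth muscle, CNN1, a calponin, rose by 1.83 (adjusted p = 0.00729) and MYLK, a myosin kinase, differed by -0.08 (adjusted p = 0.625), with sums of 1290 to 2190 percent on 6 newborn arrays and 8780 on newborn 3, and 714 to 1060 percent on fetal arrays. Of 5 macrophage markers 3 rose, among them the Fc receptor genes FCGR1A by 2.07 (adjusted p = 0.000775), well above background on 2 fetal arrays, and FCER1G by 0.76 (adjusted p = 0.00921). Both tested lymphocyte markers and both tested erythroid markers fell, as did 1 of 4 fibroblast, 1 of 3 adipocyte and the 1 tested epicardial marker. Of these falls, those of COL3A1, a fibroblast collagen, and WT1, an epicardial factor, did not pass once slide was a block (adjusted p = 0.071 and 0.0503). COL3A1 did not pass in 20 of 31 alternatives, WT1 in 13 of 31, and AHSP, an erythroid globin chaperone, in 16 of 29. The other COL3A1 probes differed by -0.185 and -0.28 (limma adjusted p = 0.374 and 0.143), and the other WT1 probe by -0.357 (adjusted p = 0.0564). Those of the lymphocyte marker CD3E and the adipocyte marker LPL passed, at -2.14 and -0.417 (adjusted p = 0.00211 and 0.0279). AHSP and the lymphocyte marker CD3D were each well above background on 2 newborn and 5 fetal arrays. MB differed by -0.34 (adjusted p = 0.139).

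Across the 13 arrays, the named genes whose pattern was most like that of the brighter ABCB1 probe were KIF5B, a kinesin motor (r = 0.724), PTGS1, a prostaglandin synthase (r = 0.631), AQP3, a water and glycerol channel (r = 0.612), HK1, a hexokinase (r = 0.607), and CAPN3, a muscle protease (r = 0.593). The lowest were CKB, a creatine kinase (r = -0.687), LOC100037697 (r = -0.689) and OXT, oxytocin (r = -0.736). All of these genes kept their sign within the groups, with KIF5B at 0.611 on newborn and 0.888 on fetal arrays. For ABCG2 the most alike were TIMP1, a protease inhibitor (r = 0.651), MDD2 (r = 0.64), PPIE, a prolyl isomerase (r = 0.638), TRA2A, a splicing factor (r = 0.604), and LOC100037678 (r = 0.602). The lowest were BMP7, a growth factor (r = -0.641), LOC780455 (r = -0.672) and LOC443244 (r = -0.678). TIMP1 followed ABCG2 at 0.924 on newborn and 0.25 on fetal arrays. These are the extremes among the named genes with a value on each of the 13 arrays, which share slides and scaling, and are given as a description.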

How the data were processed

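Per the file headers, each deposited file is the Feature Extraction output of 1 array, and its processed signal is a spot intensity with background already subtracted. The label field names Cy5 and the labelling protocol Cy3, and the files hold a single green channel. The authors' deposited series matrix, judged from its values, holds log2 signals, has no ABCB1 probe, and served as an alternative.

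The log2 processed signal minus that of each array's 75th percentile over non-control spots was used, without outlier-marked spots. Probes well above background on at least 6 arrays were tested (10257 of 15008) by limma (3.58.1, under R 4.3.3) with moderated two-sided tests, adjusted by Benjamini-Hochberg over those probes, at a threshold of 0.05. Tables were handled in data.table (version 1.17.8) and plots made in matplotlib 3.10.9 (Python 3.11.15). The steps were tested on simulated data. The number of arrays limits the precision.

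A gene was represented by its brightest tested probe. Names came from the files and the RefSeq gene annotation, and 1634 probes had 1 name. The genes, lists and tests were chosen with earlier results of these data known. Named were the members, from each list those that passed, or the 2 with the smallest p where fewer did, markers of 4 cell types, and the 5 most alike and 3 least alike genes. The other regulators named (AHR, ARNT, HIF1A, EPAS1, NR3C1 and JUN) were chosen after their values were seen. Alternatives were other background corrections, scalings and filters, slide, sex, replicate or animal number in the model, and each array left out.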

Additional observations from a re-analysis of the deposited data

Results flagged for a closer look

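Fetal 3 lay far from the other fetal arrays on the brighter ABCB1 probe, at -5.64 against -3.50 for the next lowest. That reading was not well above background, with a signal of 6.38 and a signal error of 2.53. The gap of fetal 3 to the next array was 0.651 of the group's range, above the 0.625 at which a sample of 6 is called distant. Newborn 6 lay apart on the dimmer ABCB1 probe, at -5.94, with a gap of 0.577 of the range against 0.568 for 7 arrays, and that reading is a surrogate value for a spot not above background. These are 2 of 6 probe and group combinations, and chance alone marks about 1 group in 20. The ABCB1 probes share bases, so the combinations are not independent. No other array was marked in this way for ABCB1 or ABCG2.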

How the results depend on the processing

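The age difference of the brighter ABCB1 probe lay between -0.74 and -0.15 over 14 settings of scaling, background, filter and model, that of the dimmer probe between -0.62 and -0.06, and that of ABCG2 between 0.12 and 0.23 over 16, and none passed. The smallest ABCB1 sizes came with normexp on the median background of each array (-0.15 and -0.06), where the offset of 50 makes dim changes smaller by construction. They were -0.18 (SE 0.336) and -0.12 (SE 0.363) with normexp on the background of each spot, where the SEs shrank less than the differences. With no background subtracted they were -0.21 and -0.11, and there the background left in the signal also makes dim changes smaller. Within slide 1, with fetal 3 included, the ABCB1 probes gave 0.34 and 0.69. Within slide 2 ABCG2 gave -0.013, and the cause of these signs was not tested. With 1 array left out the values were -1.11 to -0.45, -1.0 to -0.18 and 0.11 to 0.27, and with slide as a block and without fetal 3 the brighter ABCB1 probe passed at -1.06.

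The number of probes that passed for age was 48 with normexp on each spot's background, 356 within slide 1, 23 within slide 2, and 1326 with the replicate block, and 1726 to 3116 with 1 array left out. Of the 24 listed genes, 5 of which passed, the count was 0 with normexp on each spot's background and within either slide, 3 with no background subtraction, with the series matrix or with probes well above background on all 13 arrays, and 3 to 9 with 1 array left out. With the replicate block the differences were -0.67 and -0.47 for ABCB1 and 0.23 for ABCG2, and the block changed no call of theirs. The replicate numbers of the 2 groups did not pair the arrays, with correlations of same-numbered deviations from -0.07 to 0.05. With the animal number as a random block (consensus correlation 0.178) the differences were -0.67, -0.49 and 0.19, and none passed.

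With 1 array left out, the sex effect was -0.00057 to 0.50 for the brighter ABCB1 probe and -0.066 to 0.054 for ABCG2, and the slide effect was -0.33 to 0.19 and -0.13 to 0.54 for the ABCB1 probes, and -0.023 for the brighter one with quantile normalization. None of these passed. The depth of signal limits ABCB1, which was well above background on 10 and 6 of 13 arrays.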
